A study of Mus musculus with 6 samples.

Results

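The 10 immediate early genes Fos, Fosb, Jun, Junb, Egr1, Atf3, Ier2, Ier3, Nr4a1 and Dusp1 were chosen by name from the 24422 gene symbols counted in whole kidneys of iron-deficient and control mouse pups. All 10 had a row in the tables of raw counts, and all 10 passed the filter on low counts that kept 15145 genes for testing. The study compared wild type C57BL/6 pups at post natal day 15. The dams were 8 weeks old when they were split between the diets, and stayed on them before mating, through pregnancy and until the pups were taken. Food of the iron-deficient group (FeD) held 2 to 6 ppm iron, and that of the control group 220 ppm. Each group had 3 kidneys, each a separate library of polyadenylated RNA, and no allele, transgene or drug separated the groups. The labels give neither the sex of the pups nor the number of litters, so a difference between litters cannot be told apart from the diet. P values rest on the spread among these kidneys, which may be partly technical.

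Immediate early genes are transcribed within minutes of a stimulus, because the factors that switch them on are already present in the cell and wait only for phosphorylation by kinases of the MAP kinase and cAMP pathways. Their transcripts are short-lived. Most encode transcription factors that then act on slower genes: Fos and Jun proteins pair through leucine zippers to form AP-1, Egr1 is a zinc finger factor, and Nr4a1 is an orphan nuclear receptor. Others close the loop, such as Dusp1, a phosphatase that removes phosphate from MAP kinases. In the kidney these genes are known for their early response to ischemia, growth factors and tubular injury.

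RefSeq promoter sequence was examined for 8 immediate early genes. Of these, 6 carried the letters TGACG, the core of the element that CREB and ATF factors bind. Matches were sought on either strand, in the window from 250 bases before to 50 bases after the start. Egr1 and Ier2 were left out, so the counts say nothing about their promoters. Among all 32851 RefSeq promoter windows of 300 bases searched, 20.8% held TGACG. The stretches upstream of the RefSeq start are shown because they hold the letters TGACG that these 6 members share. For Atf3, Junb, Ier3 and Dusp1 that start differs from the gene positions given below, and the marked Atf3 letters lie inside that gene's positions. Capitals mark TGACG or its complement CGTCA. Each stretch was placed in the mm9 (NCBIM37) genome by exact match and is written 5′ to 3′ along the gene's own strand.
Fos, chr12:86814701-86814725, plus strand: ggcgtagagtTGACGacagagcgcc
Fos, chr12:86814764-86814788, plus strand: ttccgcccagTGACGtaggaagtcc
Fosb, chr7:19895440-19895464, minus strand: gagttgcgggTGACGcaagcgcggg
Junb, chr8:87502739-87502763, minus strand: ttcctgacagTGACGcgagccgcct
Atf3, chr1:193007213-193007229, minus strand: aatagcattaCGTCAgc
Dusp1, chr17:26645594-26645618, minus strand: cctaggccgaTGACGtctttgcttt
Dusp1, chr17:26645543-26645570, minus strand: gtagggcgggTGACGTCAccgcccggtc

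The second Dusp1 stretch held the full palindrome TGACGTCA, in which 2 TGACG matches on opposite strands overlap; 1 of the 8 members and 1.79% of all windows held it. Nr4a1 had the most matches to the core, 4, all on the strand opposite to the gene, and so its 250 bases before the start are shown whole.
Nr4a1, chr15:101097027-101097276, plus strand: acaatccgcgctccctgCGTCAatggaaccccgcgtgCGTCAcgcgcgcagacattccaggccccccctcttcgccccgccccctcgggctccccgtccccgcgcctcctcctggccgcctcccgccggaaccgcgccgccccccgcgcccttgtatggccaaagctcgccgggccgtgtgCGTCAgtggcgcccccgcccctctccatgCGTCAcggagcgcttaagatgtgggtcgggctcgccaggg

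The windows of Jun and Ier3 held no TGACG. The AP-1 letters TGANTCA and the CArG box, the element bound by serum response factor, matched none of the 8 windows, while 7.81% and 1.63% of all windows held them. TATAAA was found at Fos and Junb, that is in 2 of 8 windows, against 13.6% of all windows. These matches describe letters in a short window of 8 members, without Egr1 and Ier2, and were not tested. Sequence farther upstream was not searched.

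Library totals ranged from 13732173 to 20853293 counts, so 3 counts, taken as the smallest signal, stood at 0.144 to 0.219 CPM, the usual unit in which a gene's counts are scaled to a common library total. CPM values are scaled by the TMM method, and the intervals cover the spread between kidneys. Kidney markers, summed over 10 genes, stood at 15357 to 16125 CPM in control and 8738 to 12825 CPM in FeD kidneys. Of these genes, 5 were lower in FeD, 3 of them at least 2-fold, and 1 was higher, also at least 2-fold. FeD kidney 2 stood apart by adrenal transcripts: Cyp11b1, the last enzyme of corticosterone synthesis, had 133 CPM there and at most 0.288 elsewhere, and Th, the first enzyme of catecholamine synthesis, had 80.2 CPM against at most 0.218. The 6 adrenal markers summed to 570 CPM in that kidney and to 7.26 to 16.9 CPM in the other 5, so member values are also given without FeD kidney 2. Control kidney 1 had 6.99 CPM of Cyp11a1, the first enzyme of steroid synthesis, against at most 0.280 in the 4 kidneys other than FeD kidney 2. Star, the only adrenal marker tested, was called higher with a log2 fold change of 3.16. It stood at 0.33 without FeD kidney 2 (adjusted p = 0.14), and the call was also lost without control kidney 1, 2 or 3 (adjusted p = 0.12, 0.13 and 0.14). Macrophage and neutrophil markers summed to 121 to 141 CPM in control and 122 to 154 CPM in FeD kidneys. Of these, 4 of 9 tested genes were higher and 1 lower, and Ly6g was at or near 0. With 1 kidney left out, the number higher ranged from 2 to 6, and 1 was lower each time. The counts of this paragraph stand beside shares of 22.4% higher and 23.3% lower among all tested genes. Lower in FeD were 3 of 3 tested lymphocyte markers (7.70 to 10.6 CPM in sum against 1.44 to 2.02), 4 of 4 adipose and muscle markers (175 to 177 CPM against 37.6 to 51.0), 5 of 7 endothelial markers (910 to 963 CPM against 638 to 827, with Flt1 higher, a call lost without any 1 control kidney or FeD kidney 2), 4 of 8 stromal markers (2020 to 2054 CPM against 1317 to 1664, with 3 higher) and 1 of 3 tested blood cell markers (141 to 197 CPM against 43.8 to 84.6), while 4 globin genes were listed at 0 in every library. The part of these cell types in the values of the immediate early genes was not tested.

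In FeD kidneys, 8 of the 10 immediate early genes rose and 0 fell at an adjusted p under 0.05, in the quasi-likelihood test of edgeR, with p values adjusted by Benjamini and Hochberg's method across the 15145 genes. Across all tested genes, 22.4% were called higher and 23.3% were called lower. The rises of 6 genes, Nr4a1, Fos, Egr1, Atf3, Dusp1 and Ier3, were at least 2-fold, where 4.34% of all genes rose and 5.69% fell by as much. Every FeD kidney lay above every control kidney in 9 of the 10 genes, against 28.1% of all genes. The exception was Fosb. The median log2 fold change of the members was 1.13, beside 0.00 for all tested genes. The members were chosen with earlier results of these data known, so these shares are no test of the set. No member was lower at an unadjusted p under 0.05 by edgeR, and DESeq2 also called 8 higher and 0 lower. Without FeD kidney 2, 9 were higher, and without control kidney 1, 2 or 3, 7 were higher. Each time 0 were lower. Whole kidneys were sequenced, so more cells that express a gene and more RNA per cell cannot be told apart. The sources used here do not give the time from death to freezing of each kidney, and its part was not tested.

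**Figure D1:**
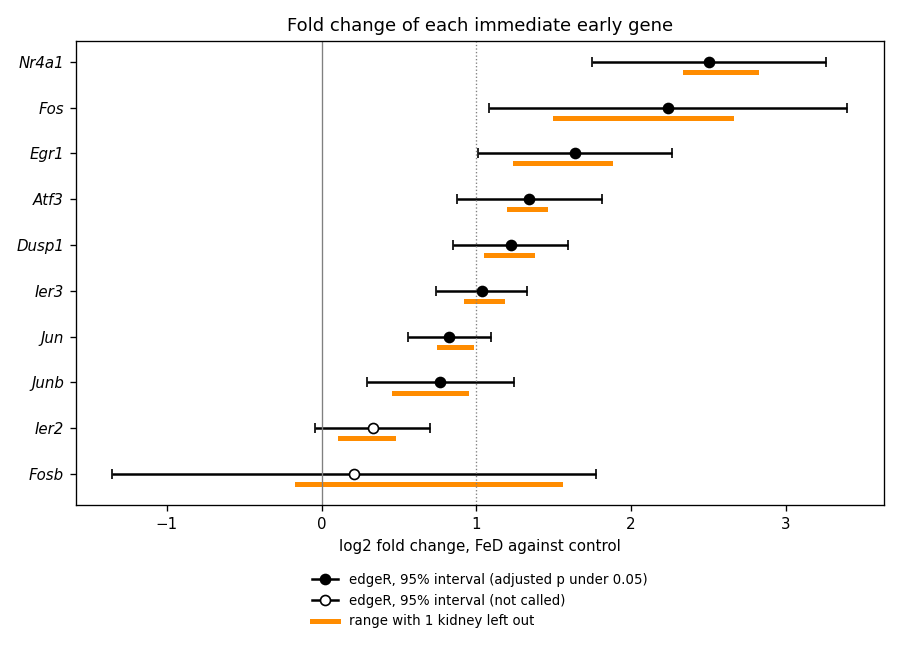
Log2 fold change of each immediate early gene in FeD against control kidneys (3 and 3), with its 95% confidence interval from edgeR (black; open circles did not pass an adjusted p under 0.05) and the range when 1 kidney was left out (orange). The dotted line marks a 2-fold rise; Nr4a1 at 2.50 and Fos at 2.24 are the largest, and the interval of Fosb runs from -1.35 to 1.77.

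Of the AP-1 proteins, Fos was the member with the largest rise. Fos (chromosome 12, 86814840 to 86818223, plus strand), the founding partner of Jun in AP-1, had 2.62, 1.98 and 2.50 CPM in control kidneys 1 to 3 and 20.2, 9.10 and 4.41 CPM in FeD kidneys 1 to 3. The groups did not overlap, but FeD kidney 1 lay 8.55-fold above the control mean and FeD kidney 3 only 1.86-fold. Its fitted log2 change was 2.24 ± 0.50 (SE) with an adjusted p of 0.0077. It was 1.51 without FeD kidney 1 (adjusted p = 0.012) and 2.38 without FeD kidney 2 (adjusted p = 0.012), so the size of the rise moved with FeD kidney 1 while the call held.

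Fosb (chromosome 7, 19888070 to 19895394, minus strand), a close relative of Fos, was the least abundant member. Its CPM values were 0.491, 0.432 and 2.45 in control and 1.63, 1.82 and 0.671 in FeD kidneys, from raw counts of 7 to 50. Control kidney 3 was the highest of all 6 and the groups overlapped. The log2 fold change of 0.21 did not pass (95% confidence interval -1.35 to 1.77, adjusted p = 0.82). It was 1.54 without control kidney 3 (adjusted p = 0.066) and -0.01 without FeD kidney 2, so the data give no direction for Fosb.

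Jun (chromosome 4, 94715725 to 94718913, minus strand), the partner that binds DNA with Fos or as a pair with itself, had 34.4, 31.6 and 33.9 CPM in control and 65.9, 48.8 and 62.0 CPM in FeD kidneys. The lowest FeD kidney, number 2, stood well above the highest control kidney. Its log2 fold change was 0.83 ± 0.12 (SE) with an adjusted p of 0.00090, and 0.96 without FeD kidney 2. BC042782, on the opposite strand, overlaps 7.28% of the exon bases of Jun, and whether reads there were assigned by strand is not known.

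Junb (chromosome 8, 87500811 to 87502617, minus strand), a Jun relative that is a weaker activator, had 20.7, 20.01 and 20.1 CPM in control and 48.2, 26.9 and 28.3 CPM in FeD kidneys. The control kidneys were nearly equal, and the FeD kidneys were split, with kidney 1 at 2.38 times the control mean and the other 2 at 1.33 and 1.40 times. edgeR gave a log2 change of 0.77 ± 0.21 (SE) with an adjusted p of 0.017, and 0.93 without FeD kidney 2 (adjusted p = 0.0075). The call was narrowly lost when any 1 control kidney was left out, with adjusted p values of 0.052, 0.058 and 0.056 without control kidneys 1, 2 and 3.

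Atf3 (chromosome 1, 192994175 to 193007219, minus strand), a stress-induced factor of the ATF family that also pairs with Jun proteins, showed the least spread among FeD kidneys for its size. It had 2.08, 2.22 and 1.57 CPM in control and 4.54, 5.32 and 4.99 CPM in FeD kidneys. FeD kidney 1, the highest kidney for most members, was the lowest for Atf3. The rise was a log2 change of 1.34 ± 0.20 (SE) with an adjusted p of 0.0013, and 1.32 without FeD kidney 2.

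**Figure D2:**
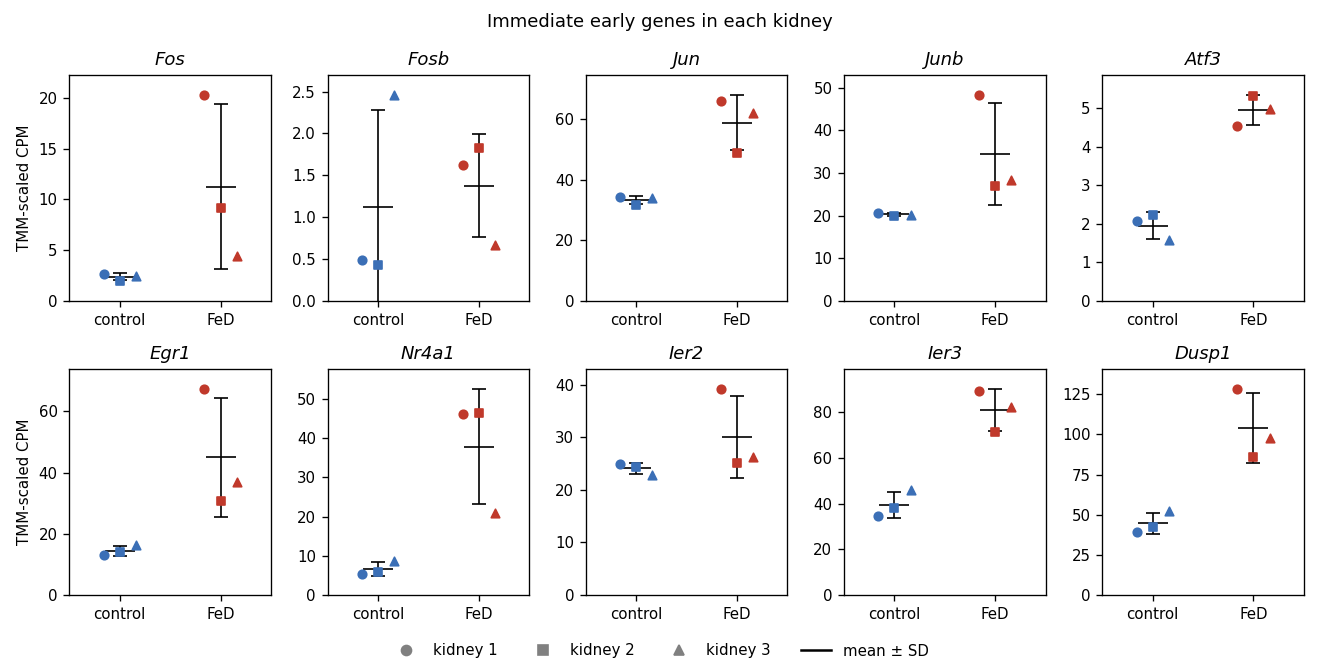
TMM-scaled CPM (vertical axis, linear, from 0) of the 10 genes in each of the 3 control (blue) and 3 FeD (red) kidneys; symbols give the kidney number, and black bars the mean ± SD. FeD kidney 1 (circle) is the highest point for Fos, Jun, Junb, Egr1, Ier2, Ier3 and Dusp1, and the groups overlap only for Fosb.

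Egr1 and Nr4a1, the members outside AP-1 that bind DNA directly, both rose more than 2-fold. Egr1 (chromosome 18, 35020861 to 35024638, plus strand) is a zinc finger factor that follows growth factor signals through the ERK pathway. It had 13.2, 13.9 and 16.2 CPM in control and 67.2, 30.7 and 36.9 CPM in FeD kidneys. All FeD kidneys were above all control kidneys, with FeD kidney 1 apart from the other 2. On the log2 scale the fitted change was 1.64 ± 0.27 (SE) with an adjusted p of 0.0020. It was 1.25 without FeD kidney 1 (adjusted p = 0.0010) and 1.87 without FeD kidney 2 (adjusted p = 0.00089). Gm17507, on the opposite strand, overlaps 0.258% of its exon bases.

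Nr4a1 (chromosome 15, 101097277 to 101105223, plus strand), also known as Nur77, had the largest log2 fold change of the 10, ranking 106 among the 15145 tested genes. Its CPM values were 5.35, 5.74 and 8.69 in control and 46.1, 46.5 and 20.9 in FeD kidneys. FeD kidneys 1 and 2 were alike, FeD kidney 2 at 7.05 times the control mean, and FeD kidney 3 was at 3.17 times. Its fitted log2 change was 2.50 ± 0.33 (SE) with an adjusted p of 0.00064. The adrenal cortex is known to express Nr4a1; without FeD kidney 2 the value was 2.35 (adjusted p = 0.0016). The part of adrenal tissue in the Nr4a1 level of FeD kidney 2 was not tested.

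Ier2 and Ier3 carry similar names but encode unrelated proteins. Ier2 (chromosome 8, 87185230 to 87186751, minus strand), a small nuclear regulator of transcription, had 25.0, 24.4 and 22.9 CPM in control and 39.1, 25.1 and 26.3 CPM in FeD kidneys. The groups barely separated, since FeD kidney 2 exceeded control kidney 1 by less than the control spread. The log2 fold change of 0.33 did not pass (95% confidence interval -0.04 to 0.70, adjusted p = 0.13). Without FeD kidney 2 it was 0.46 and passed (adjusted p = 0.047), and without FeD kidney 1 it was 0.12 (adjusted p = 0.30).

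Ier3 (chromosome 17, 35958629 to 35959868, plus strand), a regulator of cell survival that is induced by NF-kappaB and p53, had 34.6, 38.0 and 45.8 CPM in control and 89.1, 71.1 and 82.5 CPM in FeD kidneys. The FeD kidneys lay close together and well above the controls. edgeR gave a log2 change of 1.04 ± 0.13 (SE) with an adjusted p of 0.00050, and 1.14 without FeD kidney 2.

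Dusp1 (chromosome 17, 26642535 to 26645464, minus strand), the phosphatase among the members, switches off p38, JNK and ERK. It had 39.5, 42.1 and 52.2 CPM in control and 128, 85.9 and 98.1 CPM in FeD kidneys, and was in CPM the most abundant member. Each FeD kidney was above each control kidney. The rise was a log2 change of 1.22 ± 0.16 (SE) with an adjusted p of 0.00069, and 1.36 without FeD kidney 2.

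To compare levels between genes, CPM was divided by the length of the annotated exons in kilobases. In control kidneys the order from high to low was Ier3, Dusp1, Ier2, Junb, Jun, Egr1, Nr4a1, Fos, Atf3 and Fosb. Ier3 led with 34.9 ± 5.07 CPM per kilobase (SD, n = 3), Dusp1 followed at 16.5 ± 2.49, and Fosb was last at 0.300 ± 0.307. Dusp1 and Ier2 did not differ beyond their ranges in that order, nor did Fos and Atf3. In FeD kidneys Ier3 at 71.5 ± 8.03, Dusp1 at 38.6 ± 8.05 and Ier2 at 19.8 ± 5.13 CPM per kilobase led again. Nr4a1 at 15.3 ± 5.93 now stood above Egr1 at 14.5 ± 6.29, but their ranges overlapped, as did those of all neighbours from Ier2 down to Egr1 and of Fos and Atf3. Fos and Jun, partners in AP-1, stood at 1.01 ± 0.146 and 10.4 ± 0.465 CPM per kilobase in control and at 4.78 ± 3.46 and 18.5 ± 2.81 in FeD kidneys.

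The FeD kidneys did not carry the rise evenly. FeD kidney 1 was the highest of its group for 7 of the 10 genes, FeD kidney 2 for 3 (Fosb, Atf3 and Nr4a1), and FeD kidney 3 for 0. FeD kidney 2 was the lowest for 6. In the control group, kidney 3 was the highest for 5 members and kidney 1 for 4. The spread of single genes, as the biological coefficient of variation that edgeR fits within the groups, had a median of 0.172 among the 10 members and 0.106 among all tested genes, and was 0.552 for Fosb, 0.397 for Fos and 0.112 for Jun. As log2 CPM centred within each group, the mean of the 10 members deviated by 0.37, -0.09 and -0.28 in FeD kidneys 1 to 3 and by -0.11, -0.10 and 0.21 in control kidneys 1 to 3. Over these 6 kidneys, the correlation of a single member with the mean of the other 9 was highest for Egr1 (r = 0.81), Dusp1 (0.81), Fos (0.80) and Junb (0.79), 0.36 for Jun and -0.76 for Atf3; these are descriptions over 6 points that share libraries and depth.

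**Figure D3:**
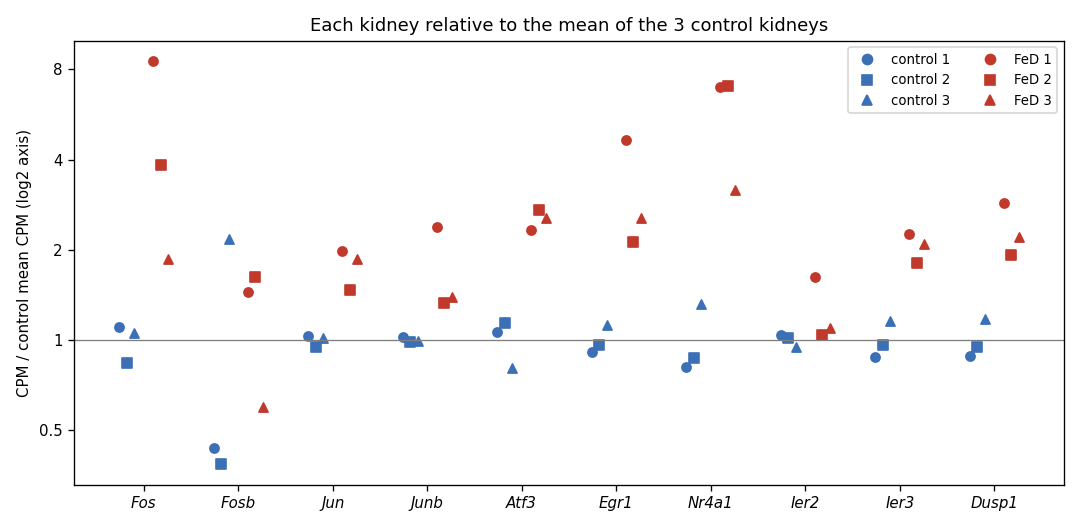
Each kidney's CPM divided by the mean CPM of the 3 control kidneys, on a log2 vertical axis, for each immediate early gene (control blue, FeD red; circle, square and triangle are kidneys 1, 2 and 3). FeD kidneys reach 8.55 for Fos and 7.05 for Nr4a1, whereas the FeD values of Atf3 lie between 2.32 and 2.72.

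Of 10733 other genes with at least 10 CPM on average, those whose centred values followed the mean of the members most closely were Dhx37 (r = 0.998), Wdr18 (0.997), Pabpn1 (0.995), Crocc (0.995) and Cops7a (0.995), each over 6 kidneys. These r were picked as the highest of many over 6 points and carry no test. None of these 5 rose in FeD: Wdr18 (log2 fold change -0.86), Crocc (-0.48) and Cops7a (-0.30) were lower at an adjusted p under 0.05, and Dhx37 (-0.25) and Pabpn1 (-0.08) did not pass. These calls were not repeated with a kidney left out.

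Among 150 related genes, grouped in 7 lists by their role, 144 were tested; 61 rose and 25 fell, and 22 and 2 of these did so at least 2-fold. The shares of all tested genes are 22.4% and 23.3%, and 4.34% and 5.69% for the 2-fold changes. The median log2 fold change of the 144 was 0.18. Without FeD kidney 2, 63 rose and 19 fell among 145 tested.

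Of the AP-1 partners, 6 of 13 tested genes rose and 2 fell. Fosl2, a Fos relative, rose from 49.98 ± 5.09 to 139 ± 19.3 CPM (SD, n = 3), a log2 fold change of 1.47. Maff and Maf, zipper proteins that can join AP-1, had log2 fold changes of 1.81 and 0.82. Batf2 (-1.76) and Batf3 (-0.99), partners of Jun in immune cells, fell from means of 0.939 and 2.58 to 0.279 and 1.31 CPM. Batf2 had 5, 5 and 4 raw counts in FeD kidneys 1 to 3, near the 3 counts taken as the smallest signal. The call of Batf3 was lost without control kidney 2 or 3 (adjusted p = 0.085 and 0.055). Jund, the Jun relative that is expressed without a stimulus, had 154 ± 9.25 CPM in control and 129 ± 28.7 CPM in FeD kidneys and was not called (change of -0.25 on the log2 scale, adjusted p = 0.18); without FeD kidney 1 it was lower at -0.41 (adjusted p = 0.022). Fosl1 was at or near 0 in all kidneys.

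Among other rapid transcription factors, 10 of 21 tested rose and 4 fell. Nr4a3, a relative of Nr4a1, had 0.655, 0.679 and 0.638 CPM in control and 10.9, 10.8 and 1.34 CPM in FeD kidneys. Its log2 fold change of 3.52 ± 0.74 (SE) with an adjusted p of 0.0056 was 3.22 without FeD kidney 2, and 4.04 without FeD kidney 3, the lowest of its group. For this gene, as for Nr4a1, FeD kidneys 1 and 2 were alike and FeD kidney 3 was lower. Nr4a2, the remaining relative, was not called (0.35 on the log2 scale, adjusted p = 0.18), nor was Egr2 (-0.08, adjusted p = 0.91), and Egr3 and Egr4 were too low to be tested.

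Klf4, Klf6 and Klf9, zinc finger factors of the Kruppel family, rose with log2 fold changes of 1.32, 1.33 and 1.03 and little spread; Klf6 went from 61.2 ± 4.11 to 153 ± 5.48 CPM. The fallers were Id2 (-0.53), Hes1 (-0.52), Id3 (-0.30) and Ier5 (-0.22, adjusted p = 0.041). The calls of Id3 and Ier5 were both lost when any kidney but FeD kidney 3 was left out, with adjusted p up to 0.075 for Id3 and 0.13 for Ier5. Id2 and Id3 block helix-loop-helix factors, and Hes1 is a target of Notch. Ier5l did not pass (-0.30, adjusted p = 0.27).

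The list of other rapid signalling and effector genes had 20 of 35 tested genes higher, 10 of them at least 2-fold, and 3 lower, with a median log2 fold change of 0.49. Ctgf, a matrix-associated growth regulator, rose from 117 ± 6.26 to 523 ± 42.0 CPM (log2 fold change 2.16, adjusted p = 8.7e-06). Errfi1, a feedback inhibitor of the EGF receptor, and Btg1, an antiproliferative gene, had log2 fold changes of 1.55 and 0.81. Phlda1 (-0.84), Arc (-0.86) and Rhob (-0.27) were the 3 that fell, and the call of Rhob was lost without control kidney 2, control kidney 3, FeD kidney 1 or FeD kidney 2 (adjusted p = 0.059, 0.085, 0.074 and 0.075). Arc is itself known as an immediate early gene of neurons.

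Feedback on MAP kinases was examined in 17 phosphatases and inhibitors besides Dusp1, of which 7 rose and 1 fell. Dusp8 (log2 fold change 1.22), which acts on JNK and p38, Dusp4 (0.74) and Dusp16 (0.23, adjusted p = 0.042) were higher, as was Spred2 (0.54), an inhibitor of Ras signalling. Dusp6, the ERK phosphatase, had 73.7, 61.0 and 143 CPM in FeD kidneys against 48.1 ± 1.44 CPM in control (log2 fold change 0.95, adjusted p = 0.024). Here FeD kidney 3, the lowest for Fos and Nr4a1, was the highest, and without it the log2 fold change was 0.50 (adjusted p = 0.0027). Leaving out control kidney 1, 2 or 3 lost the call of Dusp6 (adjusted p = 0.067, 0.077 and 0.074) and that of Dusp16 (0.12, 0.14 and 0.094). Dusp9 fell (-0.60). Dusp2 (0.14), Dusp3 (0.04), Dusp5 (1.04, adjusted p = 0.057), Dusp7 (-0.19), Dusp10 (0.21) and Dusp14 (-0.23) did not pass, although Dusp14 was lower without FeD kidney 3 (-0.31, adjusted p = 0.028).

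Of the kinases and factors upstream, 12 of 33 rose and 5 fell, with a median log2 fold change of 0.07. Mapk13, a p38 kinase (log2 fold change 1.01), Mkl2, a coactivator of serum response factor (0.75), and Braf, a kinase above ERK (0.60), had the smallest adjusted p among those that rose. Map2k6 (-0.69), Map2k2 (-0.62) and Rps6ka1 (-0.44), kinases of the p38 and ERK branches, had the smallest among those that fell. These are transcript levels and do not show the activity of the kinases.

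Atf3 is also known as a target of Atf4, the factor of the integrated stress response, so that list was set beside it. Of its 13 genes, 6 rose and 2 fell, the median being 0.06 on the log2 scale. Ddit4, an inhibitor of mTOR, rose from 41.6 ± 3.00 to 173 ± 20.5 CPM (log2 fold change 2.05), Sesn2 had a log2 fold change of 0.89 and Trib3 of 1.20. Hspa5 (-0.36), the chaperone of the endoplasmic reticulum, and Atf5 (-0.30) fell, the call of Atf5 being lost without control kidney 2 or 3 (adjusted p = 0.055 and 0.057).

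Of 12 heat shock genes tested, 8 fell and the other 4 were not called, the median being -0.44 on the log2 scale. Hspb8, a small heat shock protein, was higher at an unadjusted p under 0.05 (0.52 on the log2 scale, adjusted p = 0.071). Without FeD kidney 2, 7 fell, and without FeD kidney 1, 6 fell and 1 rose. Hsph1, a chaperone of the cytosol, fell from 172 ± 3.36 to 55.6 ± 22.1 CPM (log2 fold change -1.62), and the mitochondrial chaperones Hspe1 and Hspd1 fell by 0.68 and 0.50 on the log2 scale.

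**Figure D4:**
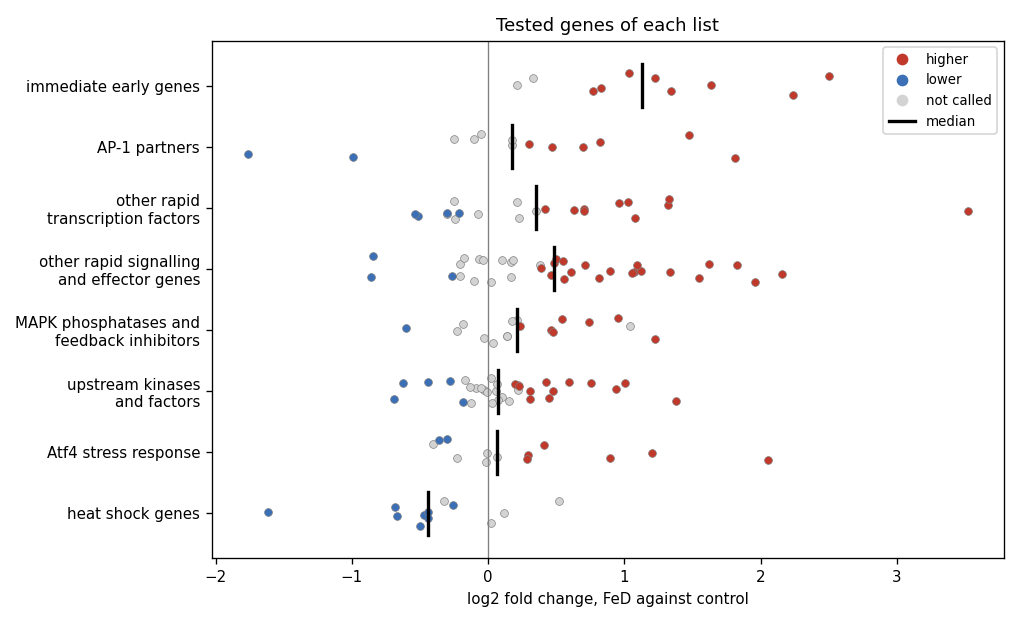
Log2 fold change (FeD against control, horizontal axis) of each tested gene in the 10 immediate early genes and in 7 lists of related genes; red points were higher and blue points lower at an adjusted p under 0.05, gray points did not pass, and black bars are medians. Medians run from 1.13 for the immediate early genes to -0.44 for heat shock genes.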

How the data were processed

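RNA-seq was examined from 3 control and 3 FeD kidneys. Per the labels and the methods, the authors trimmed single-end reads with Trimmomatic, aligned them to mm9 with TopHat2 2.0.11, kept uniquely mapped reads and counted reads per gene with HTSeq; they deposited raw counts, unnormalized and not pooled. The annotation and strand setting are not given in the sources used here. The deposited counts went through edgeR 4.0.16 (R 4.3.3): filterByExpr, TMM, glmQLFit and glmQLFTest with Benjamini-Hochberg adjustment over all 15145 tested genes. Rose or fell means an adjusted p under 0.05; standard errors are the log2 fold change divided by the square root of F. Replicate pairs of a group differed beyond counting noise (chi-square per degree of freedom 3.86 to 32.0). The script was tested on simulated data.

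The members and lists were chosen with earlier results of these data known. Named genes are all 10 members, the 3 smallest adjusted p per related list and direction, all tested Fosl, Jund, Egr, Nr4a, Ier and Dusp relatives, and the 5 genes most correlated with the members. Genes too low to be tested, Flt1 and individual adrenal markers were named after their values were seen. Positions and exon lengths are those of the NCBIM37 annotation of GENCODE; 0% of the windows of 100 bases in the members' transcripts recurred in another protein-coding gene. Promoters were RefSeq windows (GRCm38.p6), matched by symbol for 8 members and placed in NCBIM37 by exact match.

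Alternatives were DESeq2 1.42.0's size factors or test, library size alone, no filter or at least 10 counts in every kidney, a 2-fold threshold, the replicate number as a block, and each kidney left out. The smallest p that exact permutation of 3 and 3 kidneys allows is 0.1, so p values come from edgeR.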

Additional observations from a re-analysis of the deposited data

How the results depend on the processing

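The number of immediate early genes called higher was 8 under each of DESeq2's size factors, library size alone, no filter, at least 10 counts in every kidney, DESeq2's test and the replicate block, 6 with a 2-fold threshold, and 7 to 9 with each kidney left out; 0 were lower throughout. Related genes fell to 22 higher and 2 lower with the 2-fold threshold, which removes smaller changes by construction, and otherwise ranged from 49 to 63 higher and from 17 to 27 lower, the replicate block giving 59 and 22. Fosb changed sign without control kidney 1 (-0.16), control kidney 2 (-0.15) or FeD kidney 2 (-0.01), ranged from -0.16 to 1.54 with each kidney left out, and was removed by the filter of at least 10 counts in every kidney; the cause was not tested. Same-numbered kidneys come from different diet groups and did not deviate together (r of deviations -0.18, -0.00 and -0.04 for numbers 1 to 3), so the replicate block is an alternative only, and it changed no call of a member. Fosb had 7 to 50 raw counts a kidney, and the parts of depth and of spread between kidneys were not separated.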
